A study of Mus musculus with 12 samples.

Results

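Mismatch repair genes were examined in neural stem cells (NSCs) of the newborn mouse forebrain. The 6 genes were Msh6, Msh3, Pms2, Pms1, Mlh3 and Exo1, matched by symbol among 45792 genes in the deposited files, and all 6 were among the 15706 genes with enough counts to be tested. The study compared 12 libraries, 4 in each of 3 groups, with 1 library per culture and each culture grown from 1 pup. WT NSCs came from C57BL/6J mice. Ncf1-/- NSCs carried a deletion of Ncf1, which encodes the p47phox subunit that activates NADPH oxidase, in mice back-crossed to C57BL/6J. All cultures grew without serum in EGF, FGF, insulin, transferrin, selenite and B-27. At 48 h after plating, Ncf1-/- cultures received vehicle or mouse recombinant Igfbp2, an insulin-like growth factor binding protein, and RNA was taken 48 h later. The labels give 100 ng per ml of Igfbp2, while the methods of the study name a lower dose. The comparisons ask whether loss of Ncf1 raised DNA repair genes and whether Igfbp2 returned them to the WT level.

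Mismatch repair removes bases that were paired wrongly, or looped out, when DNA was copied. MutS complexes find the error: the one that contains Msh6 reads single mismatches and short loops, and the one that contains Msh3 reads longer loops. MutL complexes then act on the marked DNA, and of these the one with Pms2 cuts the new strand, the one with Mlh3 is best known from meiotic crossing over, and the one with Pms1 has no settled role. Exo1 is the exonuclease that digests the strand carrying the error, after which DNA polymerase delta refills the gap and Lig1 seals it. The pathway is used most by dividing cells, such as NSCs kept in growth factors.

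Summed estimated counts ranged from 18647167 to 34086554 in WT, from 18216794 to 23853851 in vehicle-treated Ncf1-/- and from 18201622 to 22837749 in Igfbp2-treated Ncf1-/- libraries. Ncf1 itself had 2 to 7 estimated counts in WT libraries and 1 to 4.39 in Ncf1-/- libraries, too few to check the genotype. Several libraries stood apart. The Y-linked genes Uty, Kdm5d, Ddx3y and Eif2s3y, 4 in all, summed to 105 to 116 CPM (counts as a share of the library total, scaled to a common size) in vehicle-treated libraries and to 7.79 to 9.18 CPM in all 4 Igfbp2-treated libraries, although by the methods each Ncf1-/- pup gave a culture for either treatment. Treatment and this difference cannot be told apart. WT replicate 4 had 6.46 CPM against 107 to 118 CPM in the other WT libraries, and a sample sheet of the study lists it as apocynin-treated WT. WT replicate 3 differed in cell type markers: its 8 oligodendrocyte markers summed to 2973 CPM, against 6516 to 10720 CPM in the other WT libraries and 2055 to 2228 CPM in Ncf1-/- libraries. The 8 neural stem cell markers were present throughout, summing to 3227 to 8972 CPM in WT and 8376 to 9105 CPM in Ncf1-/- libraries. They did not move together. In vehicle-treated Ncf1-/- against WT NSCs, 2 of the 8 were called higher and 5 lower (edgeR adjusted p under 0.05). Of all genes tested, 28.9% were called higher and 28.2% lower. The log2 fold change was 1.92 for Nes and -0.97 for Sox2. Of the 8 oligodendrocyte markers, 2 were called higher and 6 lower in the same comparison. The 5 astrocyte markers summed to 5496 to 10264 CPM in WT and 1822 to 2836 CPM in Ncf1-/- libraries. In vehicle-treated Ncf1-/- against WT NSCs 4 of these 5 were called lower, while Aldh1l1 was not called (0.65, edgeR adjusted p = 0.232). In Igfbp2-treated Ncf1-/- against WT NSCs Aldh1l1 was called higher (1.26, edgeR adjusted p = 0.0277) and 4 lower, against 31.6% and 30.8% of all genes tested. The 6 microglia markers summed to at most 2.08 CPM in any library. Neuron markers (6 genes) summed to 596 to 769 CPM in WT and 432 to 547 CPM in Ncf1-/- libraries, endothelial markers (3 genes) to at most 5.88 CPM, and mesenchymal markers (6 genes) to 0.70 to 4.99 CPM in WT, 10.5 to 13.5 CPM in vehicle-treated and 21.9 to 25.3 CPM in Igfbp2-treated libraries. The part of these marker differences in the values below was not tested. In such cultures, a lower share of cells that express a gene and less RNA per cell cannot be told apart.

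Per unit of transcript length, Msh6 was the most abundant of the 6 genes in all 12 libraries, at 6.97 to 15.05 TPM (abundance of transcripts, with the same total in each library). Mlh3 was the least abundant in 10 of 12 libraries, at 1.57 to 3.25 TPM. Exo1 spanned the widest range, from 0.90 TPM in WT replicate 3, where it was the lowest of the 6, to 10.17 TPM in vehicle-treated replicate 4. Msh3 lay between 1.97 and 5.98 TPM, Pms2 between 1.73 and 5.36 TPM and Pms1 between 2.45 and 5.20 TPM, so that these 3 overlapped. Values below are on another scale, CPM with TMM scaling factors, wherever no other scale is named. This scale compares libraries for 1 gene and not genes with each other.

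**Figure D1:**
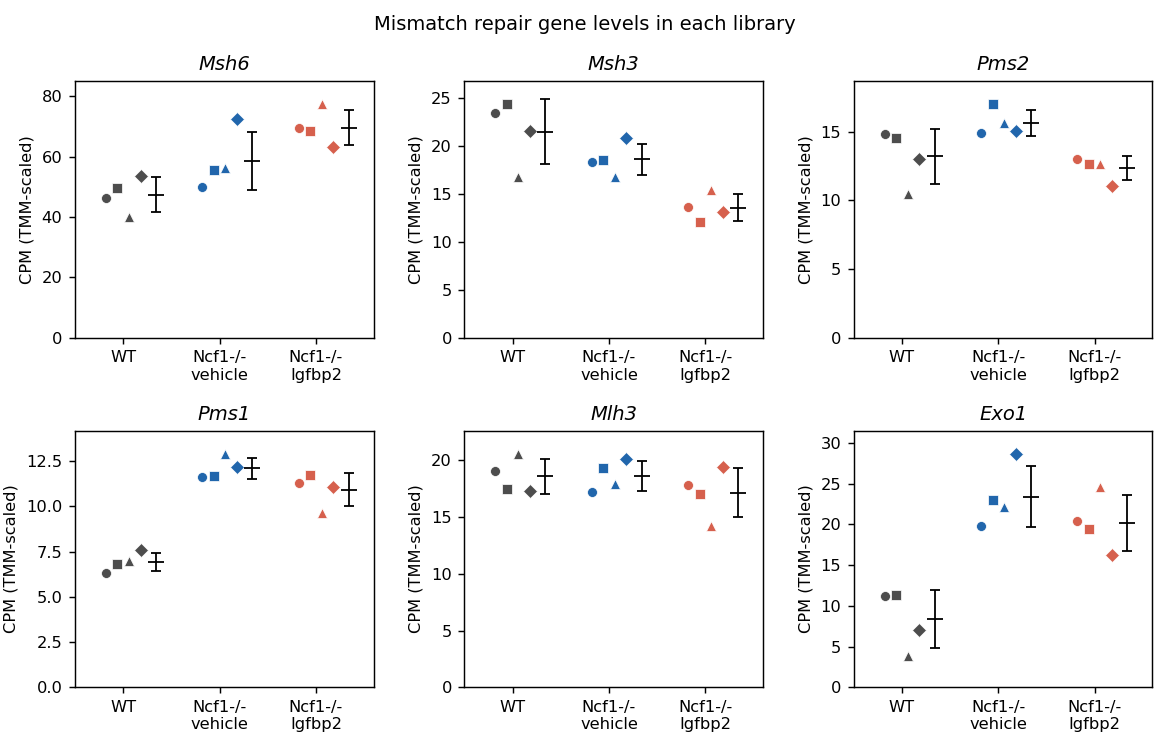
Level of each gene (y axis, CPM with TMM scaling) in 12 libraries (points, marker shape by replicate 1 to 4: circle, square, triangle, diamond), with the mean and SD of each group of 4 in black. Exo1 and Pms1 lie higher in both Ncf1-/- groups than in WT, Msh3 steps down to its lowest level after Igfbp2, and Mlh3 overlaps in all groups.

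Loss of Ncf1 went with higher Exo1, Pms1 and Msh6, while Mlh3 had a mean of 18.6 CPM in both genotypes. In vehicle-treated Ncf1-/- against WT NSCs, 3 of 6 genes were called higher at an adjusted p under 0.05 (edgeR quasi-likelihood test, adjusted over all genes tested), where 28.9% of all genes tested were called higher. The count called lower was 0 of 6, also with DESeq2 and at an unadjusted p under 0.05, where edgeR called 28.2% of all genes tested lower. The groups did not overlap for 3 of 6 genes (Exo1, Pms1 and Pms2), against 51.2% of all genes tested. The median log2 fold change was 0.28 over the 6 genes and 0.02 over all genes tested.

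After Igfbp2, Exo1, Pms1 and Msh6 were not called lower with TMM factors, while Pms1 was with library totals and with limma on TPM. In Igfbp2-treated against vehicle-treated Ncf1-/- NSCs, 2 of 6 genes, Msh3 and Pms2, were called lower, where 10.7% of all genes tested were, and the groups did not overlap for the same 2 genes, against 34.1% of all genes tested. The count called higher was 0 of 6 with edgeR and DESeq2 and at an unadjusted p under 0.05, where edgeR called 14.2% of all genes tested higher. The median log2 fold change was -0.18 over the 6 genes and 0.04 over all genes tested. In Igfbp2-treated Ncf1-/- against WT NSCs, 3 of 6 genes were called higher (Exo1, Pms1 and Msh6), against 31.6% of all genes tested, and 1 of 6, Msh3, was called lower, against 30.8%. The groups did not overlap for these 4 genes, against 54.3% of all genes tested. The 3 comparisons share libraries, so their values are not independent of each other.

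The study called a gene restored when it changed over the 3 groups, between genotypes and after Igfbp2, and no longer differed from WT after Igfbp2. By these criteria 0 of 6 genes were restored, and 5.3% of all genes tested were. The same criteria took in Pms2 when counts were scaled by library totals, with rescaled TPM or without WT replicate 1, and both Pms2 and Pms1 with limma on log2(TPM + 1). The scaling matters for all treatment values: with library totals the median log2 fold change of all genes tested was -0.23 after Igfbp2 and 0.19 between genotypes. The split of genes called after Igfbp2 was then 648 higher and 5258 lower, against 2238 higher and 1685 lower with TMM factors, and between genotypes 6024 higher and 3159 lower, against 4545 higher and 4433 lower. On TPM most genes called after Igfbp2 were also lower. With limma on log2(TPM + 1) the split was 200 higher and 6154 lower, with a median of -0.30 over all genes tested. In Igfbp2-treated Ncf1-/- against WT NSCs it was 1969 higher and 6890 lower, with a median of -0.25.

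**Figure D2:**
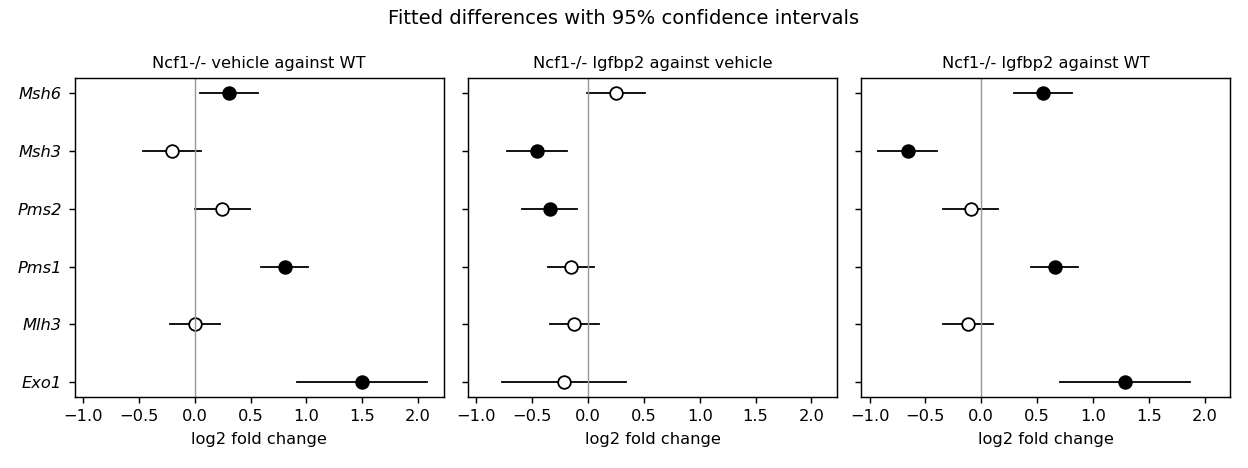
Fitted log2 fold change (x axis) of each gene (rows) with its 95% confidence interval (lines) in 3 comparisons of 4 against 4 libraries. Filled circles are called at an adjusted p under 0.05. Exo1 and Pms1 are called higher in both comparisons with WT, and Msh3 is the one gene called lower both after Igfbp2 and against WT.

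Msh6, the MutS subunit that reads single mismatches (ENSMUSG00000005370, GRCm38 chr17:87975062-87990892, + strand), had 46.3, 49.6, 40.1 and 53.6 CPM in WT replicates 1 to 4, 50.1, 55.6, 56.2 and 72.4 CPM in vehicle-treated and 69.4, 68.5, 77.3 and 63.1 CPM in Igfbp2-treated Ncf1-/- libraries. All Igfbp2-treated libraries lay above all WT libraries, and the vehicle-treated libraries overlapped both. Means were 47.4 ± 5.72, 58.6 ± 9.64 and 69.6 ± 5.85 CPM (SD, n = 4). Between genotypes the fitted difference was 0.31 on the log2 scale (SE 0.12, edgeR adjusted p = 0.0426), and this call was lost in 9 of 12 fits that left out 1 library, for example without vehicle-treated replicate 4 (0.15, edgeR adjusted p = 0.237). It was also lost with DESeq2 (adjusted p = 0.051). After Igfbp2 the log2 fold change of Msh6 was 0.25 (95% CI -0.01 to 0.51, edgeR adjusted p = 0.146). It was -0.024 with library totals, and 0.38 and called higher without vehicle-treated replicate 4 (edgeR adjusted p = 0.0213). Against WT, Msh6 in Igfbp2-treated libraries was 0.55 higher on the log2 scale (SE 0.12, edgeR adjusted p = 0.00138). That call was lost on TPM, where the log2 difference of Msh6 was 0.11 with limma on log2(TPM + 1) (limma adjusted p = 0.625) and 0.15 in the test of the study.

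Msh3, the MutS subunit for longer loops (ENSMUSG00000014850, chr13:92211872-92355003, - strand), had 23.4, 24.3, 16.7 and 21.5 CPM in WT replicates 1 to 4, 18.3, 18.5, 16.8 and 20.7 CPM in vehicle-treated and 13.6, 12.1, 15.4 and 13.1 CPM in Igfbp2-treated Ncf1-/- libraries. Every Igfbp2-treated library was below every other library, and WT replicate 3 was the lowest of the rest. After Igfbp2, Msh3 fell from 18.6 ± 1.64 to 13.5 ± 1.39 CPM (SD, n = 4), a log2 difference of -0.46 (SE 0.12, edgeR adjusted p = 0.0189). The adjusted p was 0.054 without vehicle-treated replicate 4 and 0.0538 without Igfbp2-treated replicate 2 (edgeR). Against WT the fitted difference was -0.66 on the log2 scale (SE 0.12, edgeR adjusted p = 0.000456), and it stayed called in all 12 fits that left out 1 library. Between genotypes it was -0.20 (95% CI -0.47 to 0.06, edgeR adjusted p = 0.166), and -0.31 (edgeR adjusted p = 0.0171) without WT replicate 3. With TMM factors Msh3 was the one member called lower than WT in Igfbp2-treated Ncf1-/- NSCs.

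The levels of these MutS subunits were also set against each other within each library, as the ratio of their estimated counts, on which no scaling factor acts. The ratio restates the counts behind the levels above and is no independent evidence of a difference. Msh6 had 1.98, 2.04, 2.40 and 2.49 times the counts of Msh3 in WT replicates 1 to 4, 2.74, 3.0, 3.35 and 3.49 times in vehicle-treated and 5.10, 5.67, 5.02 and 4.83 times in Igfbp2-treated Ncf1-/- libraries. The 3 groups did not overlap, and Igfbp2-treated libraries stood farthest from WT. On the log2 scale the ratio was 0.50 higher (SE 0.12) in vehicle-treated Ncf1-/- than in WT, 0.72 higher (SE 0.09) in Igfbp2-treated than in vehicle-treated Ncf1-/-, and 1.21 higher (SE 0.10) in Igfbp2-treated Ncf1-/- than in WT. Each of these had a two-sided exact permutation p of 0.0286, the smallest that 4 against 4 libraries can give. Adjusted over the 9 ratio tests made, the p was 0.0514 for each (exact permutation tests), so none passed 0.05. With TPM in place of counts the groups were also apart, at 1.48 to 1.72 in WT, 1.76 to 2.52 in vehicle-treated and 3.47 to 4.09 in Igfbp2-treated libraries.

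**Figure D3:**
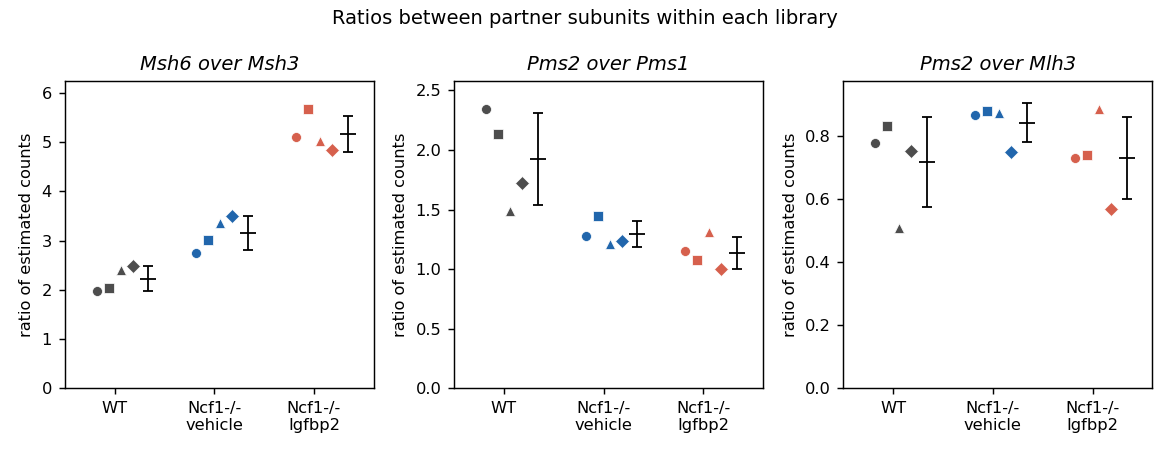
Ratio of estimated counts (y axis) between subunits within each of 12 libraries (points, marker shape by replicate), with the mean and SD of each group of 4 in black. Msh6 over Msh3 lies at 1.98 to 2.49 in WT and at 4.83 to 5.67 in Igfbp2-treated Ncf1-/- libraries, with vehicle-treated libraries between, Pms2 over Pms1 is higher in WT, and Pms2 over Mlh3 overlaps in all groups.

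The stretch around the start of Msh6 is printed below. RefSeq promoter windows (GRCm38.p6, 250 bases before and 50 after the start) were used for Msh6, Pms2, Pms1 and Mlh3. Msh3 and Exo1 were not searched, so whether they hold these words is not known here. Both strands were searched for E2F words (TTTCCCGC, TTTCGCGC, TTTGCCGC and TTTGGCGC), the CCAAT box, the GC box (GGGCGG) and an ETS word (CCGGAAG), which are present in 2.26%, 37.4%, 35.7% and 8.86% of 32851 windows. An E2F word, the letters read by the factors that switch on S phase genes, is present in the Msh6 window and in no window of Pms2, Pms1 or Mlh3. In Msh6 it lies at chr17:87975065-87975072 (+ strand), past both the RefSeq start and the start of the gene given above, and is printed within 30 bases (chr17:87975054-87975083). The 250 bases before the RefSeq start of Msh6 (chr17:87974800-87975049) hold 5 GC boxes, 3 of them overlapping, and 1 CCAAT box on the other strand. Capitals mark the E2F word in the first line, and GC and CCAAT boxes in the second. A match of letters is a description of the sequence and was not tested as a site in these cells.
Msh6, E2F word: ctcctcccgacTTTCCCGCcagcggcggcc
Msh6, before the RefSeq start: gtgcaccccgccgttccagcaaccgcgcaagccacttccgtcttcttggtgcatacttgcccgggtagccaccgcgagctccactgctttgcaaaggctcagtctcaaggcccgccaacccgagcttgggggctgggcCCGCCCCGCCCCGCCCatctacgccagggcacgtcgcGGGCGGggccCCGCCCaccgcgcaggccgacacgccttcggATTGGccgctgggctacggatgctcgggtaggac

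Pms2, the MutL subunit that nicks DNA (ENSMUSG00000079109, chr5:143909964-143933968, + strand), had 14.8, 14.5, 10.4 and 13.0 CPM in WT replicates 1 to 4, 14.9, 17.0, 15.6 and 15.1 CPM in vehicle-treated and 13.0, 12.6, 12.6 and 11 CPM in Igfbp2-treated Ncf1-/- libraries. Vehicle-treated libraries were above all others, by as little as 14.9 against 14.8 CPM, and the Igfbp2-treated libraries overlapped with WT. Between genotypes the fitted difference was 0.25 on the log2 scale (SE 0.11, edgeR adjusted p = 0.0744), and 0.43 (edgeR adjusted p = 0.00495) with library totals. After Igfbp2 Pms2 fell from 15.6 ± 0.94 to 12.3 ± 0.87 CPM (SD, n = 4), with a log2 difference of -0.34 (SE 0.11, edgeR adjusted p = 0.0415). The call was lost in 8 of 12 fits that left out 1 library, where the log2 fold change stayed between -0.40 and -0.30. Against WT it was -0.10 (95% CI -0.34 to 0.15, edgeR adjusted p = 0.483). The deleted gene, Ncf1, lies on the same chromosome, 9.68 Mb from the start of Pms2.

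Pms1, a MutL subunit (ENSMUSG00000026098, chr1:53189187-53297018, - strand), had 6.32, 6.80, 7.0 and 7.57 CPM in WT replicates 1 to 4, 11.6, 11.7, 12.9 and 12.2 CPM in vehicle-treated and 11.3, 11.7, 9.61 and 11 CPM in Igfbp2-treated Ncf1-/- libraries. All 8 Ncf1-/- libraries were above all 4 WT libraries, and the treatments overlapped. The mean was 1.75 times the WT mean in vehicle-treated NSCs (log2 fold change 0.81, SE 0.10, edgeR adjusted p = 1.34e-05) and 1.58 times in Igfbp2-treated NSCs (0.66, SE 0.10, edgeR adjusted p = 7.39e-05). Both calls held in every fit that left out 1 library. The call between genotypes was lost in the test of the study on TPM (Tukey's test, adjusted p = 0.0589). After Igfbp2 the fitted difference was -0.15 on the log2 scale (95% CI -0.35 to 0.06, edgeR adjusted p = 0.264). Pms1 was called lower with library totals (-0.42, edgeR adjusted p = 0.00472) and with limma on log2(TPM + 1) (-0.43, limma adjusted p = 0.0314). The effective transcript length that RSEM assigned to Pms1 varied from 1482 to 2323 bases between libraries, with which TPM moves. On log2(TPM + 1) the difference between Igfbp2-treated and WT NSCs was 0.07 (limma adjusted p = 0.699).

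Mlh3 (ENSMUSG00000021245, chr12:85234520-85270599, - strand), the MutL subunit best known from meiosis, had 19.1, 17.5, 20.6 and 17.3 CPM in WT replicates 1 to 4, 17.2, 19.3, 17.9 and 20.1 CPM in vehicle-treated and 17.8, 17.1, 14.3 and 19.4 CPM in Igfbp2-treated Ncf1-/- libraries. The 3 groups overlapped. Between genotypes the 95% confidence interval of the log2 fold change ran from -0.22 to 0.22 (edgeR adjusted p = 0.999), after Igfbp2 from -0.34 to 0.10 (edgeR adjusted p = 0.408) and against WT from -0.34 to 0.10 (edgeR adjusted p = 0.323). After Igfbp2 it was called lower with library totals (-0.40, edgeR adjusted p = 0.0107). With limma on log2(TPM + 1) Mlh3 was called lower both after Igfbp2 (-0.41, limma adjusted p = 0.0201) and against WT (-0.38, limma adjusted p = 0.0199).

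Among MutL subunits, Pms2 had 1.49 to 2.34 times the counts of Pms1 in WT, 1.21 to 1.45 times in vehicle-treated and 1.0 to 1.31 times in Igfbp2-treated Ncf1-/- libraries. WT libraries were all above the Ncf1-/- libraries, which overlapped between treatments. The log2 ratio was lower by 0.55 (SE 0.16) in vehicle-treated Ncf1-/- and by 0.75 (SE 0.17) in Igfbp2-treated Ncf1-/- than in WT, both with an exact permutation p of 0.0286 and an adjusted p of 0.0514. As a ratio of TPM the groups overlapped, at 0.75 to 1.49 in WT, 0.84 to 1.38 in vehicle-treated and 0.60 to 1.11 in Igfbp2-treated libraries. The first of these log2 differences was then -0.11 and the second -0.50 (exact permutation tests, adjusted p = 0.657 and 0.214). After Igfbp2 the log2 ratio of Pms2 to Pms1 counts was 0.19 lower (SE 0.10, exact permutation p = 0.143). Pms2 over Mlh3 was 0.51 to 0.83 in WT, 0.75 to 0.88 in vehicle-treated and 0.57 to 0.88 in Igfbp2-treated Ncf1-/- libraries, which overlapped, and its 3 exact permutation p-values were 0.114, 0.2 and 0.857.

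Exo1, the exonuclease (ENSMUSG00000039748, chr1:175880581-175913489, + strand), had 11.2, 11.3, 3.90 and 7.02 CPM in WT replicates 1 to 4, 19.7, 23.0, 22.1 and 28.6 CPM in vehicle-treated and 20.4, 19.5, 24.6 and 16.3 CPM in Igfbp2-treated Ncf1-/- libraries. All 8 Ncf1-/- libraries were above all WT libraries, and WT varied most, with a coefficient of variation of 43.0% against 16.1% and 17.0% in the other groups. Vehicle-treated Ncf1-/- NSCs had 2.83 times the WT level (log2 fold change 1.5, SE 0.27, edgeR adjusted p = 0.000365), and 1.24 on the log2 scale without WT replicate 3 (edgeR adjusted p = 6.66e-05). Igfbp2-treated Ncf1-/- NSCs had 2.44 times the WT level (1.29, SE 0.27, edgeR adjusted p = 0.00109), a call lost in the test of the study on TPM, where the log2 difference of Exo1 was 1.24. Between treatments the log2 fold change was -0.21, with a 95% confidence interval of -0.77 to 0.34 (edgeR adjusted p = 0.57).

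Many genes listed for the resynthesis and ligation steps of mismatch repair are also those of replication. The 15 listed genes were Pcna, the Rfc clamp loader, the Rpa proteins, DNA polymerase delta, Lig1 and Ssbp1. Of these, 14 were called higher in vehicle-treated Ncf1-/- NSCs than in WT, where 28.9% of all genes tested were. The exception was Pold4 (0.03, edgeR adjusted p = 0.921). The median log2 fold change was 0.97 over the 15 genes and 0.02 over all genes tested. Rfc4, a clamp loader subunit, rose most (1.73, SE 0.15, edgeR adjusted p = 1.1e-06). Igfbp2 left 14 of the 15 not called, with a median of -0.04, and 1, Pold4, a small subunit of polymerase delta, rose (0.91, SE 0.23, edgeR adjusted p = 0.014), where 14.2% of all genes tested were called higher. Against WT all 15 were called higher in Igfbp2-treated NSCs, where 31.6% of all genes tested were, with a median of 1.14.

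Of 36 S phase genes, 35 were called higher in vehicle-treated Ncf1-/- NSCs than in WT (28.9% of all genes tested, median log2 fold change 1.55 over the S phase genes), 4 were called lower after Igfbp2 (10.7% of all genes tested, median -0.12), and 35 were called higher in Igfbp2-treated Ncf1-/- NSCs than in WT (31.6% of all genes tested, median 1.45). Their summed level was 549 to 884 CPM in WT, lowest in replicate 3, the library with the least Exo1, and 1541 to 2315 CPM in Ncf1-/- libraries. Rrm2, a subunit of ribonucleotide reductase, rose most between genotypes (2.48, SE 0.22, edgeR adjusted p = 1.12e-06). Tyms, which makes thymidylate, fell most after Igfbp2 (-0.66, SE 0.11, edgeR adjusted p = 0.00195). The part of the share of cells in S phase in the values of Exo1, Msh6 and Pms1 was not tested.

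**Figure D4:**
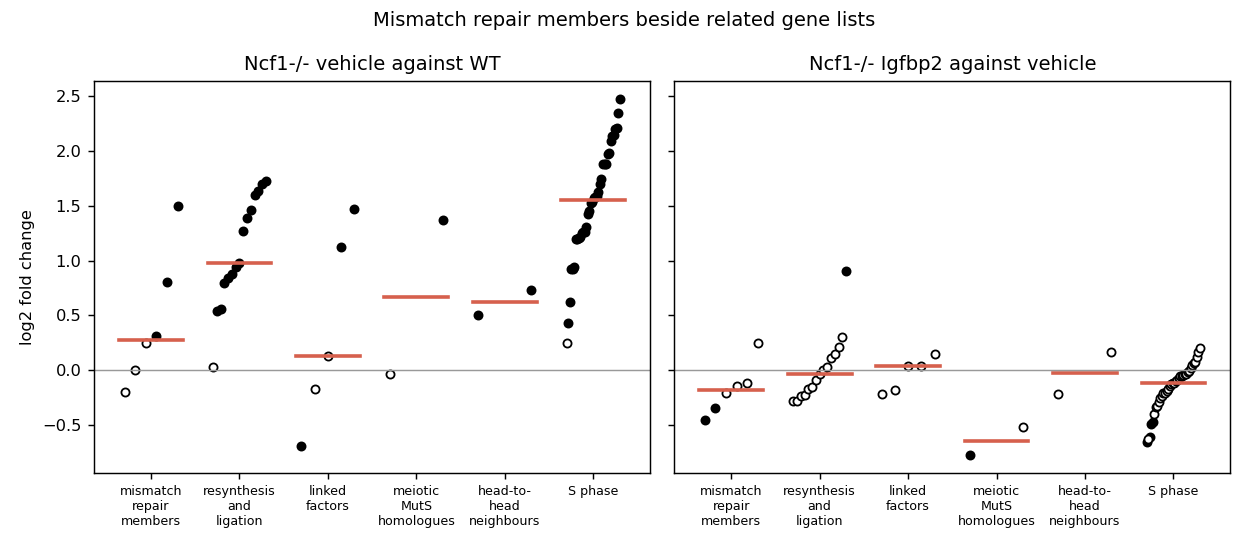
Log2 fold change (y axis) of each gene (points) in 6 gene lists (x axis), filled where called at an adjusted p under 0.05, with the list median in red, between genotypes (left) and after Igfbp2 (right). The median of the 6 mismatch repair genes between genotypes, 0.28, lies below those of resynthesis and ligation, 0.97, and of S phase, 1.55.

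Of 5 factors linked to mismatch repair, 2 were called higher and 1 lower in vehicle-treated Ncf1-/- NSCs than in WT, against 28.9% and 28.2% of all genes tested. After Igfbp2, 0 of 5 were called by edgeR or DESeq2, where edgeR called 14.2% of all genes tested higher and 10.7% lower. At an unadjusted p under 0.05, 1 of 5, Hmgb1, was lower after Igfbp2. Between genotypes Mcm8, a helicase subunit, rose most (1.47, SE 0.17, edgeR adjusted p = 1.17e-05), and Setd2, which makes the histone mark that Msh6 binds, fell by 0.70 on the log2 scale (SE 0.12, edgeR adjusted p = 0.000334). The meiotic MutS homologues Msh4 and Msh5 were near the lower end of detection, at sums of 2.76 to 6.27 CPM. Msh5 rose from 0.82 ± 0.07 to 2.15 ± 0.52 CPM (SD, n = 4) between genotypes (edgeR adjusted p = 0.000201) and fell to 1.25 ± 0.22 CPM after Igfbp2 (edgeR adjusted p = 0.0243).

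Head-to-head neighbours gave a further view of Pms1 and Pms2, because each shares the stretch before its start with a gene read the other way. Ormdl1, a regulator of sphingolipid synthesis (chr1:53297095-53310309, + strand), starts 77 bases from Pms1, and Aimp2, a scaffold of tRNA synthetases (chr5:143902704-143909847, - strand), 117 bases from Pms2. The stretches between them are printed as Pms1 and Pms2 are read (chr1:53297019-53297094, - strand, and chr5:143909848-143909963, + strand), with CCAAT boxes, GC boxes and ETS words in capitals. The run of capitals near the end of the Pms2 line is 2 GC boxes with an ETS word between them, and the ETS words of Pms1 lie across the first bases of Ormdl1 and are not shown.
Ormdl1 to Pms1: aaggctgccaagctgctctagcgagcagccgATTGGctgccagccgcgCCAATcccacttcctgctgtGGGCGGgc
Aimp2 to Pms2: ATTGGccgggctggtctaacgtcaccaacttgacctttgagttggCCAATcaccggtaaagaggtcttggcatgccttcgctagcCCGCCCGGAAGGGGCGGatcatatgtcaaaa

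Both neighbours were called higher in vehicle-treated Ncf1-/- NSCs than in WT (28.9% of all genes tested). After Igfbp2, 0 of 2 were called by edgeR, adjusted or unadjusted, or by DESeq2. Of all genes tested, edgeR called 14.2% higher and 10.7% lower after Igfbp2 (adjusted p under 0.05). Ormdl1 rose from 13.2 ± 1.78 to 21.9 ± 2.04 CPM (SD, n = 4), with a log2 difference of 0.73 (SE 0.12, edgeR adjusted p = 0.000145) beside 0.81 (SE 0.10) for Pms1. Aimp2 rose by 0.51 (SE 0.11, edgeR adjusted p = 0.00156) beside 0.25 (SE 0.11) for Pms2, and after Igfbp2 had 0.17 (SE 0.11) beside -0.34 (SE 0.11).

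**Figure D5:**
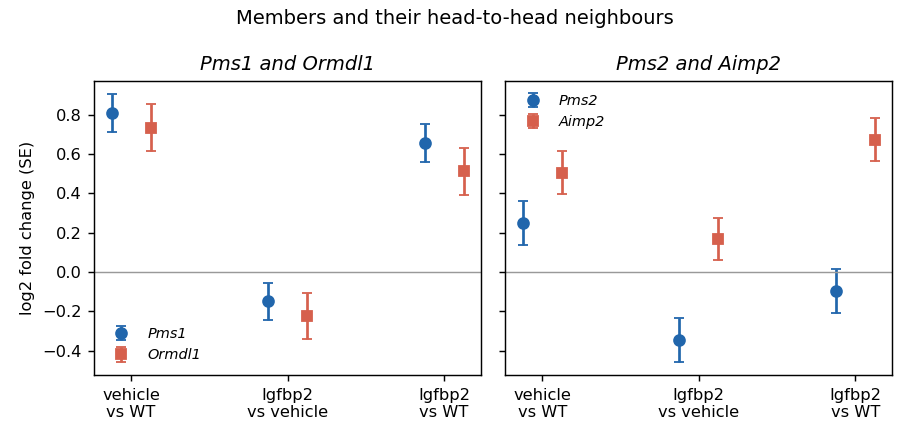
Log2 fold change with SE (y axis) of Pms1 and Pms2 (blue circles) and the genes that start beside them, Ormdl1 and Aimp2 (red squares), in 3 comparisons (x axis). Between genotypes Pms1 is at 0.81 and Ormdl1 at 0.73, and after Igfbp2 Pms2 is at -0.34 and Aimp2 at 0.17.

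For each member, the genes with the most similar pattern over the 12 libraries were found among 11172 genes with at least 5 CPM, by the root mean square difference of centred log2 CPM. For Exo1 they were E2f7, Brca1 and Mcm5 (0.11, 0.12 and 0.12, beside an SD of 0.80 for Exo1 itself). For Pms1 the nearest was Osgepl1 (0.09), which lies 16605 bases from Pms1 and next to Ormdl1 on chromosome 1, followed by Spryd4 and Ppa2 (0.09 and 0.10). Msh6 was nearest to Ptbp1, Nars and Ssr1 (0.07, 0.08 and 0.08), and Msh3 to Srpk1, 1700020I14Rik and Gnb4 (each 0.11). Pms2 was nearest to Pop4, Riok3 and Gorab (0.08, 0.09 and 0.10), and Mlh3 to Fcho2, Zfp729a and Zfp729b (each 0.09, beside an SD of 0.14 for Mlh3 itself). No member was among the 3 nearest genes of another.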

How the data were processed

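RNA depleted of rRNA was sequenced from 12 cultures, 4 per group, and replicates are separate cultures. Per the labels, reads were mapped with Bowtie2 and quantified with RSEM on GRCm38, and whether reads were counted by strand is not given in the sources used here, so genes that overlap on opposite strands may share reads. The authors deposited estimated counts (RSEM's expected counts) without normalization, of which 15.9% were not whole, and they were rounded here. TPM, as deposited by the authors, add up to the same total in each library. FPKM, also deposited by the authors, were not used. The merged table deposited by the authors holds a score that equals TPM times the number of transcripts of a gene, checked for the 6 members, and gave only their symbols.

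Counts were analysed with edgeR 4.0.16 in R 4.3.3 (filterByExpr, TMM factors, a mean per group, quasi-likelihood test, Benjamini-Hochberg adjustment over 15706 genes). The count model was checked on simulated data. Ratios were compared by two-sided exact permutation tests (Python 3.11.15). Alternatives used DESeq2 1.42.0, limma 3.58.1 on TPM, the study's 1-way ANOVA with Tukey's test, other filters and scalings, the replicate number as a block and each library left out. The closest replicates, vehicle-treated replicates 2 and 3, differed by more than sampling noise gives, with a chi-square of 4.63 for each degree of freedom. Gene positions are from GENCODE and promoter sequences from RefSeq (GRCm38.p6).

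Members and lists were chosen with earlier results of these data known. Genes named are the members, at most 4 genes of each other list (the called genes that rose or fell most), the neighbours and the 3 genes nearest to each member. Some genes are not reported here.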

Additional observations from a re-analysis of the deposited data

Results flagged for a closer look

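Of 27 groups of 4 values examined (the CPM of 6 genes and 3 ratios in 3 groups), 1 held a library far from the rest by Dixon's criterion, where chance gives about 1 in 20. The ratio of Pms2 to Mlh3 counts was 0.747 in vehicle-treated Ncf1-/- replicate 4, against 0.865 to 0.879 in the other 3 vehicle-treated libraries. The gap was 0.895 of the range of the group. This library also had the highest Msh6 (72.4 CPM) and Exo1 (28.6 CPM) of its group.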

How the results depend on the processing

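Exo1 and Pms1 kept their direction against WT in every alternative, and Msh3 in Igfbp2-treated NSCs was called lower than WT in all 22. With library totals, 5906 genes and 4 members lower were called after Igfbp2 and 1478 genes restored. The study's own test on TPM called 4329 genes with 1 member higher between genotypes. It called 2149 genes after Igfbp2, 64 higher and 2085 lower, and 5592 against WT, 965 higher and 4627 lower, with 0 members higher. After Igfbp2, limma on log2(TPM + 1) and log2(TPM + 0.1) called 6354 and 6519 genes. Of these, 6154 and 6354 were lower, with 4 members among the lower. Against WT they called 1 member higher and 2 lower, and the first gave 1269 genes restored. Rescaled TPM gave 2 members lower against WT, no filter 1 lower after Igfbp2, and an adjusted p under 0.01 gave 1514 genes and 0 members lower after Igfbp2 and 363 restored. Msh6 after Igfbp2 turned to -0.024 with library totals, -0.22 in the study's test, and -0.20 and -0.22 with limma on log2(TPM + 1) and log2(TPM + 0.1), and Mlh3 between genotypes to -0.0097 with DESeq2 and -0.090 with rescaled TPM. The cause of these changes was not tested.

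Leaving out each library in turn gave 2294 to 4872 genes, 0 to 1 members higher and 0 to 2 lower after Igfbp2, 0 to 1 lower between genotypes and 510 to 979 restored, with Mlh3 between genotypes at -0.077 to 0.054. The counts of genes fell by over 1.5 times without vehicle-treated replicate 1 (2320) or 2 (2294) or Igfbp2-treated replicate 2 (2550), and the restored counts without these or vehicle-treated replicate 3 (510, 512, 553 and 532). Members lower after Igfbp2 were 0 without vehicle-treated replicate 4 or Igfbp2-treated replicate 2, and 1 without any of the other 6 Ncf1-/- libraries. By the methods, cultures of each Ncf1-/- pup received vehicle or Igfbp2, but the labels do not say which libraries share a pup. Y-linked genes summed to 105 to 116 CPM in vehicle-treated and 7.79 to 9.18 CPM in Igfbp2-treated libraries. By these sums no vehicle-treated library matched any Igfbp2-treated library, in any order. Taken in the order of the labels, same-numbered libraries had correlations of -0.07 to 0.03 with group means taken off, and the 12 pairs of unlike number -0.25 to 0.26. The first range lies inside the second, so these correlations cannot tell whether same-numbered libraries share a pup. With that replicate number as a block, 5434 genes and 2 members lower were called after Igfbp2, and the block changed no call of a member. As 4 differences within these numbers, Msh6 over Msh3 had an exact p of 0.125, the smallest that 4 pairs can give. With 4 libraries per group, effects inside the confidence intervals of Mlh3 were not excluded.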
